A study of Bos taurus with 6 samples.

Results

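The myogenic and MEF2 transcription factors were followed in the longissimus dorsi muscle, the long muscle of the back, of 3 Shandong black cattle and 3 Luxi cattle. The group holds 9 genes chosen by name: MYF5, MYOD1, MYOG and MYF6 (the myogenic regulatory factors), PAX7, MEF2A, MEF2C and MEF2D, and SIX4. Of these 9, 8 were found among the 18010 genes listed in the RNA-Seq files, and PAX7 matched no gene name and was not analysed here. All 8 reached a mean of 1 FPKM in 1 or both breeds, the minimum for the test, as did 9781 genes in all. FPKM is the number of sequenced fragments per kilobase of transcript, scaled to the depth of the library. It is not adjusted for other differences between libraries, so comparisons between animals are also given with further scaling.

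All animals were 18 months old and untreated, and each animal gave 1 library. The Shandong black breed was developed from Japanese, Luxi and Bohai stock, and Luxi is a local yellow breed. The animals of each breed came from a different supplier, so breed and origin cannot be told apart. XIST, the RNA of the inactive X chromosome, had between 4.83 and 14.0 FPKM in the Shandong black cattle and between 0 and 0.207 in the Luxi cattle. The labels give no sex, and sex and breed cannot be told apart in any comparison below.

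The myogenic regulatory factors are basic helix-loop-helix (bHLH) proteins that pair with E proteins on DNA and switch on muscle genes. MYF5 and MYOD1 commit cells to the muscle lineage, MYOG drives their differentiation into fibres, and MYF6 (also called MRF4) is the member known to prevail in mature fibres. The MEF2 proteins are MADS-box factors that bind beside the bHLH factors and are held in check by class IIa histone deacetylases, while SIX4 is a homeobox factor that acts upstream of the myogenic factors. PAX7 marks the satellite cells, the stem cells of muscle.

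The libraries rested on 14.1 to 14.6 gigabases of aligned sequence in the Shandong black cattle and on 17.52 to 17.99 gigabases in the Luxi cattle. Without further scaling the median log2 fold change of all tested genes, Luxi over Shandong black, was 0.13, and with median-of-ratios size factors it was 0.02. The tissue label was checked against marker genes: ACTA1, the actin of skeletal muscle fibres, had 12237 to 54910 FPKM, and of 6 heart muscle markers only MYH6 was listed, with at most 0.00169 FPKM. Luxi replicate 1 stood apart in DES (desmin, a fibre protein), with 174 FPKM against 1249 to 2571 in the other animals. Over the bases that all DES reference transcripts share, its coverage per aligned gigabase was 447 against 1545 to 2566. Luxi replicate 1 was also the lowest animal for ACTA1, at 12237 FPKM against 32188 to 54910 in the other animals. CKM, at 1832 against 2232 to 6718 FPKM, and MYH7, at 120 against 235 to 2097 FPKM, were lowest there too. Not all fibre genes were low in it: NEB was highest there, at 590 FPKM. TTN, at 625 FPKM, and MYH1, MYH2, TNNT1 and TNNT3 lay within the range of the other animals. Fold changes without Luxi replicate 1 are given beside the results that it moves.

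None of the 8 factors passed the test (limma on log2(FPKM + 1), adjusted p under 0.05 and an absolute log2 fold change of 1 or more). The same rule called 251 of all 9781 genes, or 2.57%, with 1.54% higher and 1.02% lower in the Luxi cattle. At an unadjusted p under 0.05, 3 of the 8 stood out, MEF2A, MEF2D and MYF6, against 2136 of all genes, or 21.8%. By limma voom on estimated reads 0 of 8 were called and 4 had an unadjusted p under 0.05, against 19.6% of all genes. The breeds did not overlap for the same 3 factors, MEF2A and MEF2D being higher and MYF6 lower in the Luxi cattle. Of all genes 29.1% did not overlap, 20.0% with higher and 9.13% with lower values in the Luxi cattle, so 3 of 8 is close to the background. With median-of-ratios size factors the log2 fold changes of MEF2A, MEF2D and MYF6 were 0.72, 0.83 and -1.30 (adjusted p = 0.147, 0.145 and 0.109 by limma). The median log2 fold change of the 8 without that scaling was 0.37, against 0.13 over all genes tested. In bulk tissue, fewer cells of a type and less RNA per cell cannot be told apart.

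**Figure D1:**
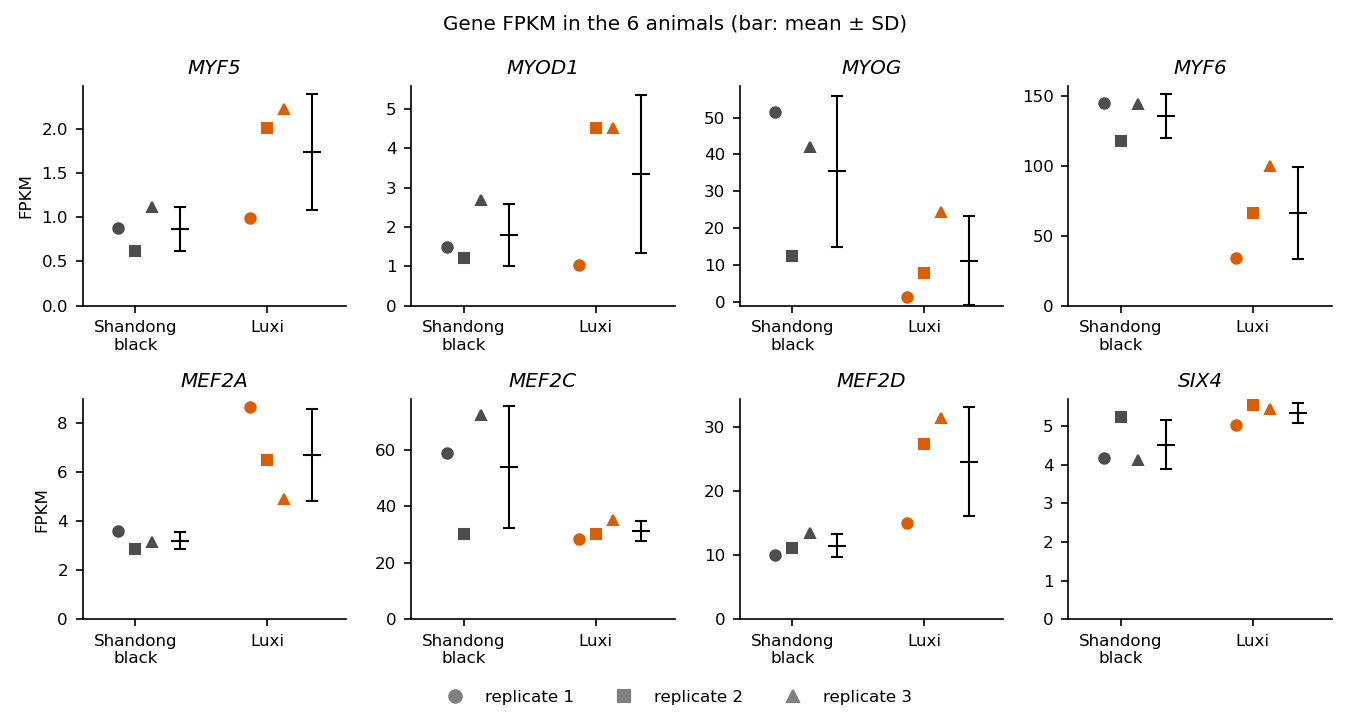
Gene FPKM of the 8 factors (vertical axes, each starting at or just below 0) in the 3 Shandong black and 3 Luxi cattle, with 1 point per animal and the mean ± SD beside the points. The breeds do not overlap for MEF2A, MEF2D and MYF6, and Luxi replicate 1 is the lowest animal for MYOG, at 1.15 FPKM.

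MYF6 had the highest level of the 8 factors in all 6 animals and was lower in the Luxi cattle. Its FPKM was 145, 118 and 144 in Shandong black replicates 1, 2 and 3. In Luxi replicates 1, 2 and 3 it was 33.7, 66.1 and 99.9. Every Luxi animal lay below every Shandong black animal, and the Luxi animals spread far more widely. The means were 136 ± 15.7 and 66.6 ± 33.1 FPKM (SD, n = 3 each), a log2 fold change of -1.14 ± 0.41 (SE) with an adjusted p of 0.164 by limma. A two-sided exact permutation test had p = 0.1, and 3 against 3 animals allow no smaller value. Without Luxi replicate 1 the log2 fold change was -0.73 (adjusted p = 0.121 by limma).

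MYOG, the differentiation factor, varied more between animals than any of the other 7, from 1.15 to 51.5 FPKM, a range of 44.7-fold. The Shandong black animals had 51.5, 12.4 and 42.2 FPKM and the Luxi animals 1.15, 7.89 and 24.4 FPKM. Luxi replicate 3 was above Shandong black replicate 2, so the breeds overlapped, although the mean was 3.17-fold higher in Shandong black cattle. The log2 fold change was -1.99 ± 0.90 (SE, adjusted p = 0.251 by limma), and it was -1.05 without Luxi replicate 1 and -2.84 without Luxi replicate 3. Luxi replicate 1 still rested on about 200.5 estimated reads for MYOG.

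MYOD1 and MYF5, the commitment factors, were the lowest of the 8 in every animal. MYOD1 had 1.48, 1.2 and 2.70 FPKM in Shandong black cattle against 1.03, 4.51 and 4.53 in the Luxi cattle. Luxi replicates 2 and 3 were the highest animals and Luxi replicate 1 the lowest, so the breeds overlapped. The Shandong black values depended on how transcripts were credited. In replicate 2 the reference transcript held 5.64% of the MYOD1 FPKM, the rest being on an assembled transcript. Over the 1872 bases of the reference transcript, coverage per aligned gigabase was 2.54, 1.12 and 2.70 in Shandong black cattle against 1.03, 4.51 and 4.51 in the Luxi cattle, which overlapped too. The log2 fold change was 0.54 ± 0.42 (SE, adjusted p = 0.477 by limma), and without Luxi replicate 1 it was 1.02 with an adjusted p of 0.0554. MYF5 followed the same order within the Luxi cattle, with 0.993, 2.0 and 2.22 FPKM against 0.873, 0.615 and 1.11 in the Shandong black cattle. Its log2 fold change was 0.53 ± 0.23 (SE, adjusted p = 0.237 by limma), which was 0.75 without Luxi replicate 1, and its values rested on 119 to 514 estimated reads per animal.

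Set against each other within an animal, MYOG and MYF6 stood higher over the commitment factors in the Shandong black cattle. These ratios were chosen after the values were seen and belong to 19 within-family quantities computed. MYF6 exceeded MYF5 by 167, 191 and 130 times in the Shandong black cattle and by 34.0, 33.0 and 44.9 times in the Luxi cattle. MYOG exceeded MYOD1 by 34.8, 10.4 and 15.6 times in the Shandong black cattle and by 1.12, 1.75 and 5.40 times in the Luxi cattle. The 34.8 of Shandong black replicate 1 rests on a MYOD1 FPKM of 1.48, where coverage over the reference transcript was 2.54. Neither ratio overlapped between the breeds (exact permutation p = 0.1 each, 0.158 after Benjamini-Hochberg adjustment over the 19). The ratio of MYF6 to MYOG did overlap, with 2.82, 9.46 and 3.42 against 29.3, 8.37 and 4.09. The 4 myogenic factors summed to 199, 132 and 190 FPKM in the Shandong black cattle and to 36.9, 80.5 and 131 FPKM in the Luxi cattle, again without overlap.

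MYF5 and MYF6 are neighbours on chromosome 5, and their mean levels differed between the breeds in opposite directions, neither past the test. In the ARS-UCD1.2 build MYF6 lies at chr5:10275399-10277216 and MYF5 at chr5:10284434-10287669, both on the plus strand with 7217 bases between them. MYF6 was lower and MYF5 was on average 2.01-fold higher in the Luxi cattle. MYOD1 lies at chr15:34794120-34796767 and MYOG at chr16:797555-800395, both on the minus strand. Each of the 4 genes has 1 reference transcript of 3 exons.

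Exon by exon, coverage per aligned gigabase was read from the deposited exon values. For MYF6 each of the 3 exons was lower in every Luxi animal than in every Shandong black animal. The first exon had 176, 158 and 187 in Shandong black cattle against 40.8, 91.9 and 132 in the Luxi cattle. For MYOG the first exon had 86.2, 19.6 and 69.1 in Shandong black cattle against 1.73, 12.1 and 40.0 in the Luxi cattle, in the same order of animals as the whole gene. MYOD1 differed in shape: its first exon had 6.77, 8.96 and 4.10 times the coverage of its last exon in Shandong black cattle against 1.03, 2.53 and 2.34 times in the Luxi cattle. These ratios did not overlap between the breeds, with means of 6.61 ± 2.43 and 1.97 ± 0.816 (SD, n = 3 each, exact permutation p = 0.1, and 0.267 after Benjamini-Hochberg adjustment over 4 genes). For MYF5, MYOG and MYF6 the same ratio overlapped, lying between 2.68 and 5.77, between 2.46 and 3.18 and between 1.58 and 2.34.

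**Figure D2:**
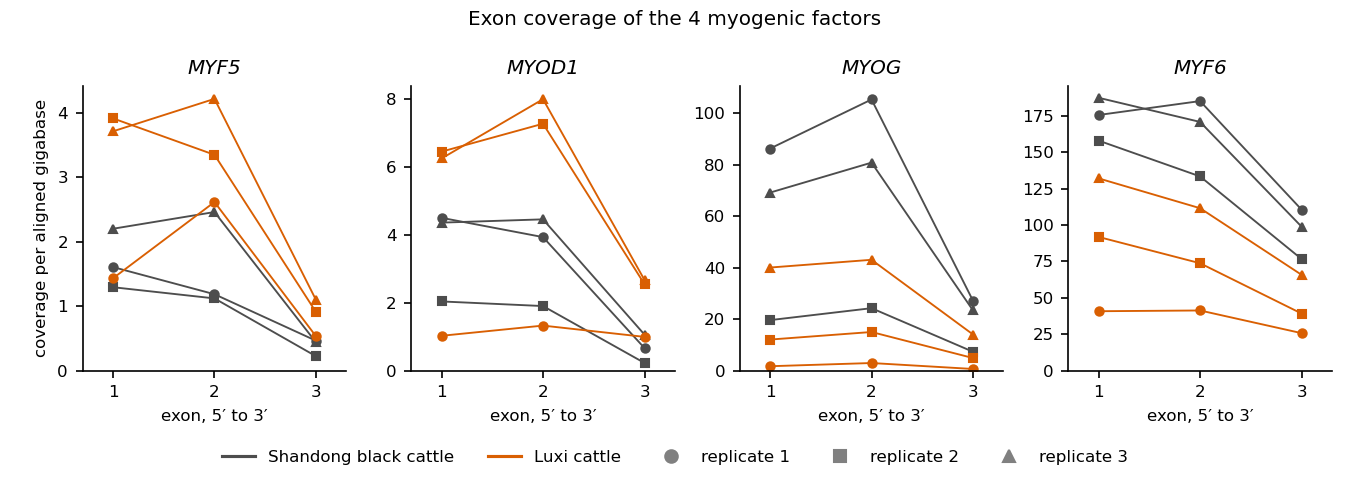
Coverage per aligned gigabase (vertical axes) of exons 1 to 3, numbered from the 5′ end, of the 4 myogenic factors, with 1 line per animal. MYF6 is lower in all 3 Luxi lines at each exon, and the last exon of MYOD1 lies far below the first in the Shandong black lines, with 0.666, 0.228 and 1.06 at the last exon.

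MEF2A and MEF2D, both of the MADS-box family, had higher FPKM in every Luxi animal than in every Shandong black animal. MEF2A had 3.58, 2.88 and 3.17 FPKM in the Shandong black cattle. In the Luxi cattle it had 8.69, 6.50 and 4.92 FPKM, with Luxi replicate 1 the highest. Its log2 fold change was 0.85 ± 0.22 (SE), the lowest adjusted p of the 8 (0.0870 by limma), and it was 0.67 without Luxi replicate 1. MEF2D had 9.93, 11.1 and 13.3 FPKM in Shandong black cattle against 15.0, 27.3 and 31.3 FPKM in the Luxi cattle. The Luxi animals again lay above all Shandong black animals, here with Luxi replicate 1 the lowest. Its log2 fold change was 0.98 ± 0.30 (SE, adjusted p = 0.125 by limma), and without Luxi replicate 1 it was 1.29 with an adjusted p of 0.0207, which passed.

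The MEF2D difference depended on transcripts that StringTie assembled beyond the annotation. On reference transcripts alone MEF2D had 5.33, 11.1 and 5.13 FPKM in Shandong black cattle against 8.83, 1.02 and 11.9 in the Luxi cattle. The breeds then overlapped and the log2 fold change turned to -0.29 (adjusted p = 0.842 by limma). In Luxi replicate 2 the reference transcripts held 3.75% of the FPKM counted for the gene. Coverage per aligned gigabase over the 5403 bases shared by all reference transcripts, whichever transcript was credited, was 10.5, 11.4 and 11.2 in Shandong black cattle against 15.7, 29.8 and 33.3 in the Luxi cattle. By that measure, added after the data were seen, MEF2D had a log2 fold change of 1.11 ± 0.29 (SE, adjusted p = 0.0738 by limma) and MEF2A one of 0.91 ± 0.20 (SE, adjusted p = 0.0494 by limma, below the fold threshold). Over shared bases 0 of the 8 factors were called, against 3.27% of all genes, and 4 did not overlap between the breeds (MYF6, MEF2A, MEF2D and SIX4), against 31.2%.

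MEF2C, the most abundant of the 3 MEF2 genes, had 58.9, 30.1 and 72.6 FPKM in Shandong black cattle against 28.4, 30.3 and 35.3 in the Luxi cattle. Shandong black replicate 2 lay among the Luxi animals, so the breeds overlapped. The log2 fold change was -0.68 ± 0.35 (SE, adjusted p = 0.298 by limma). In Shandong black replicate 3, 66.3% of the MEF2C FPKM was on transcripts with a shorter 3′ end, down to 2730 bases. Nearly all of it was on assembled transcripts, and 0.746% of the MEF2C FPKM was on an annotated one. In the other 5 animals no such transcript above 0.3 FPKM was listed and transcripts were at least 6070 bases long. Over the 1297 bases that all reference transcripts share, MEF2C coverage per aligned gigabase was 94.2, 55.5 and 80.1 in Shandong black cattle against 54.2, 63.7 and 75.0 in the Luxi cattle. On that measure the log2 fold change was -0.23 ± 0.28 (SE, adjusted p = 0.653 by limma).

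SIX4 was the steadiest of the 8, between 4.13 and 5.55 FPKM over the 6 animals. It had 4.18, 5.26 and 4.13 FPKM in Shandong black cattle against 5.05, 5.55 and 5.45 in the Luxi cattle. Shandong black replicate 2 lay among the Luxi animals. On reference transcripts alone the breeds did not overlap, with 4.18, 4.39 and 4.13 FPKM in Shandong black cattle against 5.05, 4.70 and 5.45 in the Luxi cattle. With assembled transcripts included, the log2 fold change was 0.21 ± 0.16 (SE, adjusted p = 0.488 by limma), and with median-of-ratios size factors it was 0.07.

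**Figure D3:**
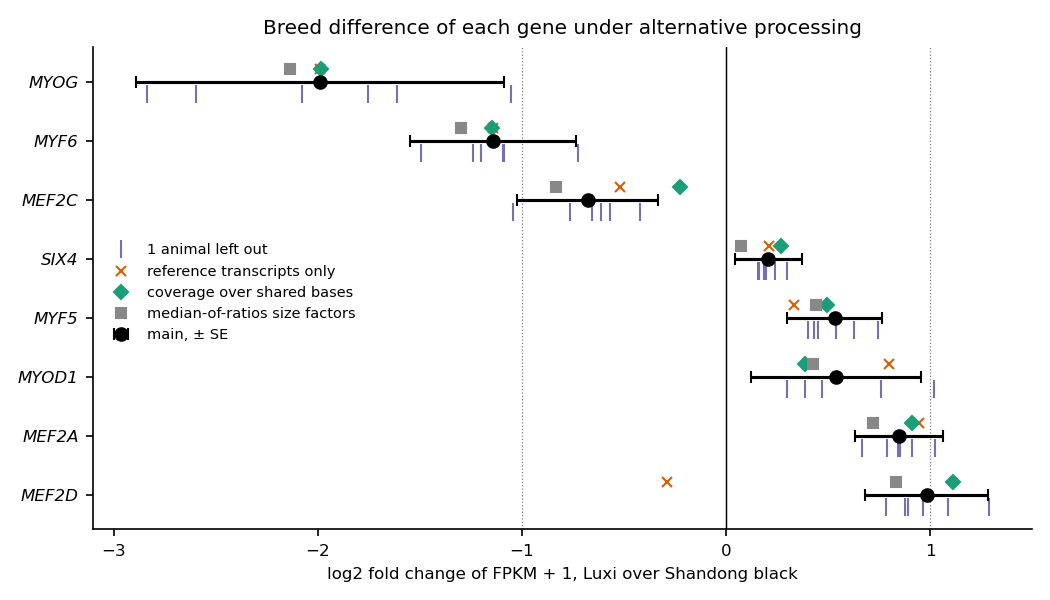
Log2 fold change of FPKM + 1, Luxi over Shandong black (horizontal axis, dotted lines at the threshold of 1), for each factor: the value with its SE, the 6 values with 1 animal left out, and 3 alternative ways of computing it (for the shared bases, coverage per aligned gigabase takes the place of FPKM). MEF2D on reference transcripts only, at -0.29, is the only value in the plot on the other side of 0 from its main value.

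The MEF2 genes were also set against each other as shares within an animal. The shares of MEF2C and MEF2D lay apart between the breeds by FPKM and by shared bases but overlapped on reference transcripts alone, and with 3 against 3 animals none could pass the test. MEF2C made up 81.4, 68.3 and 81.5% of the summed FPKM of the 3 genes in Shandong black cattle against 54.6, 47.3 and 49.4% in the Luxi cattle. By coverage over shared bases the shares were 87.6, 80.3 and 85.3% against 70.4, 64.2 and 66.6%. Neither set of shares overlapped between the breeds. MEF2D made up 13.7, 25.1 and 15.0% of the FPKM against 28.8, 42.6 and 43.8%, and MEF2A 4.94, 6.52 and 3.55% against 16.7, 10.1 and 6.88%. On reference transcripts alone the share of MEF2C overlapped, with means of 66.7 ± 13.3% and 51.9 ± 9.23% (SD, n = 3 each). The MEF2D share on reference transcripts overlapped too, with 15.8, 41.1 and 15.4% against 27.5, 5.09 and 37.7%, and its difference of -0.657 percentage points had the other sign. The exact permutation p was 0.1 for each share by FPKM or by shared bases (0.158 after adjustment over the 19 quantities), and on reference transcripts it was 0.2 for MEF2C and 1 for MEF2D. The summed FPKM of the 3 genes overlapped, with 72.5, 44.1 and 89.1 in Shandong black cattle against 52.1, 64.1 and 71.6 in the Luxi cattle.

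**Figure D4:**
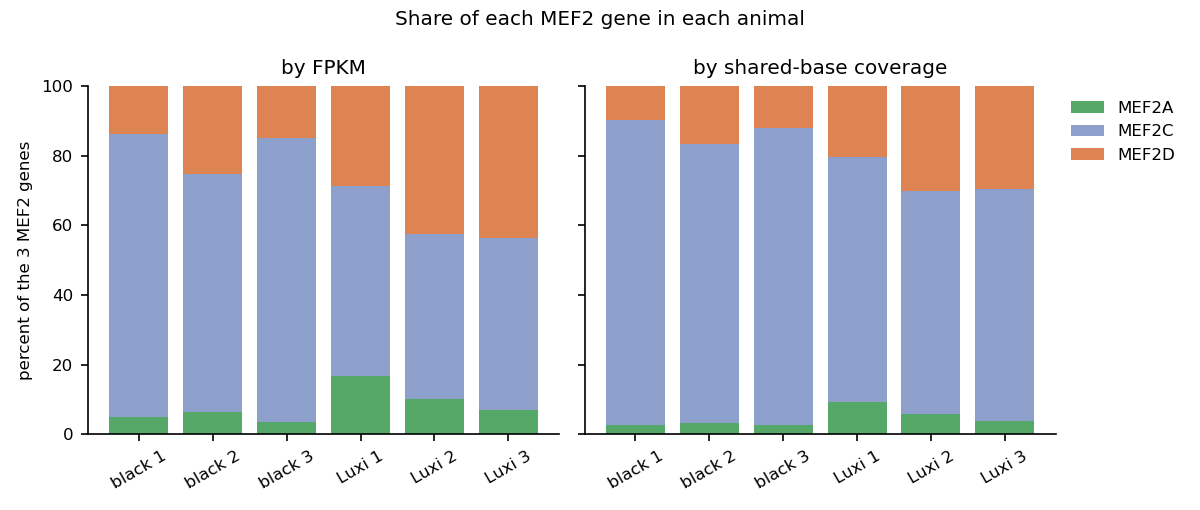
Share of MEF2A, MEF2C and MEF2D in the sum of the 3 genes (vertical axis, percent) in each animal, by FPKM on the left and by coverage over shared bases on the right. The MEF2C share is above 68% by FPKM in all 3 Shandong black cattle and below 55% in all 3 Luxi cattle.

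MEF2 genes are known for a pair of mutually exclusive exons behind the region that binds DNA, and for a short exon that is included in muscle. Exons were compared within each gene, so these shares do not depend on its level. In MEF2A the pair is an exon of 132 bases at chr21:6907289-6907420 and one of 138 bases at chr21:6907086-6907223. The 138-base exon took 34.6, 39.7 and 40.6% of the coverage of the pair in Shandong black cattle against 35.7, 42.8 and 29.2% in the Luxi cattle, so the breeds overlapped. In MEF2D the pair is an exon of 138 bases at chr3:14348378-14348515 and one of 135 bases at chr3:14348571-14348705, and the 135-base exon took 51.9, 69.2 and 62.3% against 57.8, 66.1 and 63.7%. Both genes thus used both exons of the pair in every animal.

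MEF2C used 1 exon of its pair almost alone. The 138-base exon at chr7:88291754-88291891 took 90.1, 90.5 and 94.0% of the coverage in Shandong black cattle against 95.6, 99.9 and 99.5% in the Luxi cattle, and the rest lay on the 144-base exon at chr7:88291951-88292094. The breeds did not overlap, with means of 91.5 ± 2.14% and 98.3 ± 2.37% (SD, n = 3 each, exact permutation p = 0.1). By the FPKM of the transcripts that hold each exon, the 138-base exon had 84.9, 85.1 and 80.9% against 87.6, 98.7 and 97.1%, which did not overlap either. A second MEF2C exon, at chr7:88349209-88349404, can start 3 bases further in and is then 193 bases long. The 193-base form took 41.6, 47.3 and 21.3% of the coverage in Shandong black cattle against 19.2, 19.3 and 13.3% in the Luxi cattle. These values did not overlap, but Shandong black replicate 3 lay close to the Luxi animals (means 36.7 ± 13.7% and 17.3 ± 3.45%, SD, n = 3 each, exact permutation p = 0.1). Over the 6 exon choices compared in the MEF2 genes and SIX4, every p of 0.1 became 0.2 after Benjamini-Hochberg adjustment.

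The shares of the short exons overlapped between the breeds. The 24-base exon of MEF2A at chr21:6873406-6873429 was on 81.7, 66.5 and 74.4% of the FPKM that spans it in the Shandong black cattle and on 71.4, 81.5 and 79.6% in the Luxi cattle. The 21-base exon of MEF2D at chr3:14352268-14352288 was on at least 99.9% in all 6 animals. The 24-base exon of MEF2C at chr7:88259859-88259882 was on at most 0.825%, and at 0 in 5 of the 6 animals. As shares of single reference transcripts, none of the 8 of MEF2A, 13 of MEF2C, 6 of MEF2D and 2 of SIX4 separated the breeds, and the smallest exact permutation p was 0.2.

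**Figure D5:**
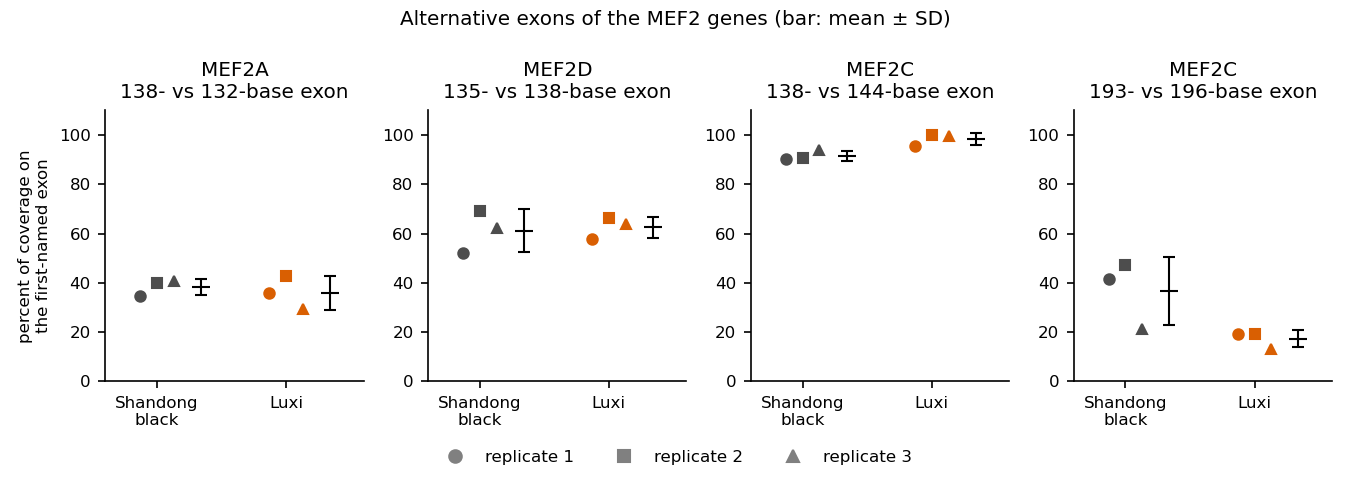
Percent of the coverage of an exon pair that lies on the first-named exon (vertical axes), with 1 point per animal and the mean ± SD beside them. MEF2A and MEF2D overlap between the breeds, and in MEF2C the 138-base exon is higher and the 193-base form lower in the Luxi cattle.

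Ordered by median FPKM, the levels ran MYF6, MEF2C, MYOG, MEF2D, SIX4, MEF2A, MYOD1 and MYF5. MYF6 exceeded MEF2C in 6 of 6 animals, and so did MEF2D over SIX4, MEF2A over MYOD1 and MYOD1 over MYF5. MYOG exceeded MEF2D in the 3 Shandong black cattle and in 0 of the 3 Luxi cattle. SIX4 exceeded MEF2A in the 3 Shandong black cattle and in 1 Luxi animal. Among neighbours these 2 pairs are the ones whose order was not shared by all animals, and all 3 Shandong black cattle had the same order of the 8 genes.

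By the distance between centred log2(FPKM + 1) values over the 6 animals, MYOG was most like TNFRSF12A (distance 0.769) and CA3 (1.03), where 0 is an identical pattern. TNFRSF12A, the receptor of the cytokine TWEAK, had 80.1, 18.2 and 66.5 FPKM in Shandong black cattle against 3.13, 7.5 and 30.4 in the Luxi cattle. CA3, a carbonic anhydrase abundant in slow fibres, had 1599, 878 and 1398 FPKM against 64.5, 457 and 915. MYF6 was most like ACTR3B (0.297) and PREP (0.354), and MEF2A like ANO8 (0.169) and CTDSP2 (0.186). MEF2C was most like DNAJC24 (0.233) and POLR2M (0.324), and MEF2D like UXS1 (0.203) and PLAT (0.240). MYF5 was most like MIDN (0.0411) and CTSD (0.124), MYOD1 like MID1IP1 (0.329) and IFRD2 (0.357), and SIX4 like VPS50 (0.104) and CAND1 (0.120).

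The partners, regulators and targets of these factors were read from 6 lists, with the 8 factors left out and each gene counted once. Of 112 genes 104 were listed and 90 tested, and 3 were called: ID2 fell, and HDAC7 and NOTCH3 rose in the Luxi cattle. That is against 2.57% of all genes. The median log2 fold change of the 90 was 0.18, and 29 of them did not overlap between the breeds, against 29.1% of all genes. Without Luxi replicate 1 13 were called, without Luxi replicate 3 1, and without Luxi replicate 2 or Shandong black replicates 1 or 3 none.

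Of the bHLH partners and inhibitors 10 of 16 were tested and 1 was called. ID2, which binds E proteins and keeps them from the myogenic factors, had 16.2, 12.05 and 17.0 FPKM in Shandong black cattle against 4.41, 2.88 and 1.86 in the Luxi cattle. It lay lower in every Luxi animal, with a log2 fold change of -2.02 ± 0.27 (SE, adjusted p = 0.0206 by limma), and kept this direction in all 20 alternatives and the call in 15. The adjusted p was 0.0994, 0.117 and 0.0689 without Shandong black replicate 1, Shandong black replicate 3 and Luxi replicate 2. The repressor BHLHE40 had a log2 fold change of 0.97 ± 0.32 (adjusted p = 0.137 by limma) and the E protein TCF4 one of 0.03 ± 0.37. The other E proteins went apart by FPKM, as noticed after their values were seen. TCF3 had 1.40, 0.914 and 1.00 FPKM in Shandong black cattle against 2.12, 2.66 and 2.73 in the Luxi cattle (adjusted p = 0.07 by limma), while TCF12 had 7.92, 8.15 and 7.80 against 5.35, 3.35 and 4.62 (adjusted p = 0.0913 by limma). By coverage over shared bases TCF3 overlapped, with 1.10, 0.358 and 0.779 against 0.692, 2.27 and 1.56. TCF12 did not overlap on that measure, with 6.45, 6.79 and 6.33 against 4.54, 2.55 and 3.72.

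Among the class IIa histone deacetylases and the kinases and phosphatases that act on MEF2, 23 of 25 genes were tested and 1 was called. HDAC7, a class IIa deacetylase that represses MEF2, had 2.03, 1.38 and 1.82 FPKM in Shandong black cattle against 4.18, 4.50 and 6.40 in the Luxi cattle. Its log2 fold change was 1.12 ± 0.20 (SE, adjusted p = 0.0368 by limma). It held its call in 7 of 19 alternatives, with the value at 0.31 on reference transcripts only, and lost it without each animal but Luxi replicate 1. RCAN1, an inhibitor of calcineurin, had 164, 97.7 and 144 FPKM against 54.0, 9.90 and 53.0 (adjusted p = 0.125 by limma). The calcineurin subunits PPP3R1 and PPP3CB had log2 fold changes of 1.32 ± 0.61 and 0.63 ± 0.33, with adjusted p of 0.256 and 0.310 by limma.

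The lists of EYA, DACH and related factors and of coactivators held no called gene, with 6 of 10 and 16 of 21 tested. SIX2, a homeobox factor, had a log2 fold change of 0.23 ± 0.34 and EYA4, a transcriptional coactivator, one of 0.49 ± 0.30. VGLL2, a muscle cofactor of TEAD proteins, had 73.2, 50.2 and 64.0 FPKM in Shandong black cattle against 24.9, 34.9 and 39.9 in the Luxi cattle, without overlap (adjusted p = 0.125 by limma). SETD7 did not overlap either, with a log2 fold change of -0.69 ± 0.24 (adjusted p = 0.163 by limma), while CARM1 did, with -0.30 ± 0.39.

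Of the targets of the myogenic factors and MEF2, 20 of 24 were tested and 0 called. By FPKM 2, both lower in the Luxi cattle, did not overlap between the breeds, against 29.1% of all genes. Their median log2 fold change was -0.19. The 2 were XIRP2 and KLHL40, proteins of the fibre, named after their values were seen. XIRP2 had 793, 272 and 553 FPKM against 110, 71.8 and 140 (log2 fold change -2.24 ± 0.47, adjusted p = 0.0558 by limma). KLHL40 had 72.9, 24.5 and 58.8 FPKM against 11.3, 13.9 and 15.9 (-1.73 ± 0.41, adjusted p = 0.0719 by limma). By coverage over shared bases KLHL40 overlapped, with 149, 55.8 and 121 against 17.9, 31.3 and 66.8, and XIRP2 did not, with 563, 189 and 376 against 66.3, 45.3 and 80.6. The most abundant targets, MB (myoglobin), CKM (muscle creatine kinase) and DES, had log2 fold changes of 0.08 ± 0.49, 0.25 ± 0.61 and -1.20 ± 0.89.

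Of the satellite cell markers 17 of 20 were tested, MYF5 among them, and 1 was called. NOTCH3, a Notch receptor that mural cells also express, had 1.00, 0.915 and 1.14 FPKM in Shandong black cattle against 4.36, 2.45 and 3.16 in the Luxi cattle. Its log2 fold change was 1.08 ± 0.20 (SE, adjusted p = 0.0412 by limma), the call held in 5 of 19 alternatives, and it was lost without each of the 6 animals. SDC4, CD34 and ITGA7, the most abundant of the list, had log2 fold changes of 0.26 ± 0.57, 0.67 ± 0.35 and -0.65 ± 0.30, none of them called.

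Markers of fat cells and 1 collagen also passed the test between the breeds, and the part of other cell types in the values above was not tested. No listed marker of these types was at 0 in all animals. Of 6 fat cell markers 4 were called, all lower in the Luxi cattle, and the summed level ran from 127 to 189 FPKM in the Shandong black cattle and from 11.97 to 35.5 in the Luxi cattle. Of 6 fibroblast markers COL3A1 was called, higher in the Luxi cattle, and the sum ran from 116 to 168 against 360 to 477 FPKM. The other markers of that list were not called: COL1A1 and PDGFRA were higher and DPT lower in every Luxi animal, with DPT at 10.8, 10.2 and 12.3 against 9.30, 6.81 and 8.72 FPKM, and DCN and LUM overlapped. None of the 5 tested endothelial, 6 smooth muscle and mural, 3 immune and 2 nerve markers was called. The sums were 19.5 to 20.8 against 24.8 to 66.0 FPKM for endothelial and 68.5 to 79.9 against 43.5 to 251 for smooth muscle and mural markers. Luxi replicate 1 gave the upper Luxi value of both sums. In it RGS5 had 131 FPKM against 8.22 and 13.5 in Luxi replicates 2 and 3, and PECAM1 29.0 against 11.7 and 14.5. CLDN5 and CNN1 were instead higher in Luxi replicate 3. For immune markers the sums were 7.18 to 11.1 against 4.65 to 9.58, and for nerve markers 48.1 to 120 against 9.38 to 29.2. S100B made up most of the nerve sum, with 118, 46.8 and 91.5 against 26.6, 5.76 and 21.2 FPKM, while MBP, the other nerve marker tested, lay the other way, with 0.415, 0.379 and 0.252 against 1.86, 1.79 and 0.821 FPKM. The 3 red blood cell markers listed summed to at most 1.34 FPKM and none was tested.

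The 10 skeletal muscle fibre markers held no called gene, with sums of 39145 to 51813 FPKM in Shandong black cattle against 16937 to 68783 in Luxi cattle. By FPKM 2 of the 10 did not overlap between the breeds, TNNT1 and TNNT3, against 29.1% of all genes, and they are named after their values were seen. TNNT1, the slow troponin T, had 935, 750 and 953 FPKM in Shandong black cattle against 585, 118 and 604 in Luxi cattle. TNNT3, the fast troponin T, had 49.1, 330 and 261 against 585, 2142 and 1600. TNNT1 was lower and TNNT3 higher in the Luxi cattle (adjusted p = 0.284 and 0.101 by limma). The myosin heavy chains MYH7, MYH2 and MYH1 overlapped by FPKM but not by coverage over shared bases, where 31.2% of all genes did not overlap. On that measure MYH7 had 1721, 2584 and 2037 in Shandong black cattle against 323, 379 and 404 in Luxi cattle. MYH2 had 253, 6.17 and 167 against 646, 773 and 789, and MYH1 0.112, 0.129 and 0.282 against 0.865, 51.1 and 6.03. Whether fibre type had a part in the levels of MYF6 or the MEF2 genes was not tested.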

How the data were processed

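RNA-Seq libraries of 3 Shandong black and 3 Luxi cattle were analysed, grouped by the breed in the labels. Per the file headers and the study's methods, Fastp was used by the authors for trimming, HISAT for alignment to ARS-UCD1.2, and they assembled each library with StringTie in its stranded mode. The kit named in the labels is not stated there to keep strand, so the strand of a transcript rests on that setting. The headers name StringTie version 1.3.3b, the methods a later version. The authors deposited coverage, FPKM and TPM for each transcript, together with the coverage of each exon, and no whole-read counts were used here.

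Gene FPKM was the sum of the reference transcripts and of same-strand assembled transcripts that had 50% or more of their bases on its exons. Assembled transcripts left out held 21.6 to 29.8% of the FPKM of a library. The 9781 genes whose mean reached 1 FPKM in 1 or both breeds were tested with limma 3.58.1 in R 4.3.3 (eBayes with trend) on log2(FPKM + 1), with Benjamini-Hochberg adjustment over all of them. Exact two-sided permutation tests over the 6 animals were used for single values. Estimated reads are coverage times length over 150 bases. The limma procedure was tested on simulated data. Figures and tables used pandas 2.3.3 and scipy 1.17.1.

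The factors and lists were chosen with earlier results of these data known. The genes named are all the factors, the called genes and the 3 genes of highest mean FPKM of each list, and the 2 genes most like each factor. Marker genes of other cell types are named as checks, and other names were chosen after their values were seen. One gene that this rule names is not reported here. Coverage over shared bases was added as an alternative after the data were seen. The alternatives were another pseudocount, 2 other filters, TPM, 2 scalings, eBayes without trend, voom, a replicate block, other transcript sets, other fold thresholds and each animal left out.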

Additional observations from a re-analysis of the deposited data

Results flagged for a closer look

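Transcripts on the plus strand that start inside MEF2C, which lies on the minus strand, belonged to no comparison above and were present in all 6 animals. They start between chr7:88423124 and chr7:88423191, at least 2639 bases inside the gene, run out past its 5′ end as far as chr7:88492387 and have 2 to 5 exons, none of them in the reference annotation of the files. Their FPKM was 0.508, 0.593 and 0.611 in Shandong black cattle against 0.804, 0.503 and 2.60 in the Luxi cattle. The fewest estimated reads in an animal were 66.6, above the 3 that a count of 0 allows. The strand rests on the stranded mode in which StringTie was run. At MYOG and MYF6, transcripts on the other strand with the introns of the gene itself held at most 1.49 and 0.880% of its FPKM in any animal. At SIX4, MEF2C, MEF2D and MEF2A, where most or some of the opposite-strand transcripts have other introns, all of them together reached 5.35, 7.96, 24.7 and 27.7%. The breeds overlapped at the MEF2C transcripts, and Luxi replicate 3 was the highest animal.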

How the results depend on the processing

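Of 156 fold changes of the 8 factors under 20 alternatives, 154 kept their direction and stayed uncalled. Some of these crossed the fold threshold of 1 in size, such as MYF6 at -0.73 without Luxi replicate 1 and MEF2A at 1.02 without Luxi replicate 3. MEF2D reversed to -0.29 on reference transcripts only and passed without Luxi replicate 1 (1.29, adjusted p = 0.0207 by limma), so the number of factors called was 0 to 1 with 1 animal left out and 0 otherwise. With 1 animal left out, log2 fold changes ran from -2.84 to -1.05 for MYOG, -1.50 to -0.73 for MYF6, -1.04 to -0.42 for MEF2C, 0.16 to 0.30 for SIX4, 0.40 to 0.75 for MYF5, 0.30 to 1.02 for MYOD1, 0.67 to 1.02 for MEF2A and 0.78 to 1.29 for MEF2D. Adjusted p over the alternatives ran from 0.165 to 0.503 for MYOG, 0.0787 to 0.400 for MYF6, 0.0494 to 0.279 for MEF2A and 0.0207 to 0.842 for MEF2D.

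All genes called numbered 251, and 63 without the FPKM filter, 134 with a mean FPKM of at least 5, 91 with voom, 163 on reference transcripts only, 67 at a log2 fold change of at least 2, and 3 to 593 with 1 animal left out (10 without Shandong black replicate 1, 3 without Shandong black replicate 3, 593, 44 and 86 without Luxi replicates 1, 2 and 3). List genes called numbered 3, and 0 without the filter, 1 with a mean FPKM of at least 5, 0 with voom, 1 at a log2 fold change of at least 2, 6 over shared bases and 0 to 13 with 1 animal left out. The cause was not tested.

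The main fit treated the animals as unpaired. The correlations of same-numbered deviations were 0.084, 0.087 and 0.075, below the limit of 0.1 set for pairing. Each animal nevertheless correlated best with its own number, and the highest correlation between different numbers was 0.008. These values cannot decide whether same-numbered animals were handled together. A fit with the replicate number as a block called 135 genes, 3 list genes and 0 of the 8 factors. Of the list genes called without the block, ID2 was called with it, and HDAC7 and NOTCH3 were not (adjusted p = 0.0603 and 0.0637 by limma). With 1 animal left out, the Luxi minus Shandong black difference in percentage points ran from -27.2 to -14.2 for the 193-base MEF2C exon, 6.01 to 8.15 for the 138-base MEF2C exon, -5.83 to 0.971 for the 138-base MEF2A exon and -3.18 to 5.45 for the 135-base MEF2D exon. The MEF2A sign turned without Luxi replicate 3 and the MEF2D sign without Shandong black replicate 1 or Luxi replicate 2 (-0.37). The effect of depth on these values was not tested.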
